A study of Drosophila melanogaster with 7 samples.

Results

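The genes described are those of the epitracheal Inka cells that make and process ecdysis triggering hormone: ETH, amon, Phm, Pal2 and dimm. They were chosen by exact gene name, with case, so that Phm is not the ecdysone enzyme gene phm. All 5 were found among the 17697 named genes of the tables. RNA of tracheae, the tubular airways, from third-instar Drosophila melanogaster was sequenced in 7 libraries, 4 control and 3 Hop.CA. Every library has the same strain label. It names the tracheal driver btl-Gal4, the transgenes UAS-GFP and UAS-Hop.CA, which encodes a form of the JAK kinase, and tub-Gal80ts, a temperature-sensitive repressor that holds the driver down. Control larvae stayed at 18 °C, and their titles call them wild type although the strain label names the transgenes. Hop.CA larvae were grown at 18 °C and spent the last 18 hours, from the second larval stage, at 29 °C. The effect of Hop.CA and that of temperature cannot be told apart here, and the larval stage reached, which temperature also changes, was not compared. The titles call the libraries of each group biological replicates. The labels give no number of animals per library and no age in hours. The p-values measure only the spread between these libraries. The libraries hold 16795748 to 20455268 reads assigned to named genes, of which 89.3% to 90.9% were unique to 1 gene.

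Inka cells are endocrine cells that sit along the tracheal trunks. Shortly before each molt they release ETH peptides, which act through the receptor ETHR on neurons that drive shedding of the old cuticle and inflation of the new airway. Like other peptide hormones, ETH is cut from a longer precursor by a prohormone convertase, of which amon encodes the fly form of PC2. Its C-terminus is then amidated in a pair of steps, by the hydroxylase that Phm encodes and by a lyase such as the one that Pal2 encodes. dimm encodes a basic helix-loop-helix factor that raises peptide processing and storage in neuroendocrine cells. amon, Phm and dimm are also active in peptidergic neurons.

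ETH and Phm were abundant and the other members were scarce. Per length, as the RPKM that the authors deposited, ETH stood at 227 ± 21.6 RPKM in control and 196 ± 19.0 in Hop.CA libraries (mean ± SD, n = 4 and 3), above the mean RPKM of 97.9% of the 17697 genes. Phm stood at 64.6 ± 3.37 and 73.9 ± 3.88 RPKM. Pal2, at 1.34 ± 0.325 and 0.960 ± 0.127 RPKM, and amon, at 0.352 ± 0.0443 and 0.345 ± 0.0574 RPKM, lay far below. dimm reached 0.0149 to 0.195 RPKM and was the lowest. The order ETH, Phm, Pal2, amon, dimm held with no overlap between neighbours, from 178 to 245 RPKM for ETH, 59.8 to 78.4 for Phm, 0.820 to 1.81 for Pal2 and 0.295 to 0.407 for amon. Pal1, the other lyase gene, stood at 29.3 to 35.8 RPKM, well above Pal2.

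None of the members passed the test between the groups. The threshold was 0.05 for p adjusted by Benjamini-Hochberg over the 9457 genes of edgeR's quasi-likelihood test, and 31.5% of those genes (2978) were called, 16.4% higher and 15.1% lower in Hop.CA. 4 of the 5 members had enough reads to be tested and 0 were called. Phm alone had an unadjusted p under 0.05, and DESeq2 and limma-voom also called 0, with 35.4% and 31.4% of all genes called. With 4 tested genes the count cannot be told from that share. In 2 of the 4, Phm and Pal2, the groups did not overlap, as in 43.3% of all tested genes. hop itself, the gene of which Hop.CA is a form, stood at 38.4 to 44.0 CPM in control and 1342 to 1593 CPM in Hop.CA libraries, in the direction that the labels give.

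**Figure D1:**
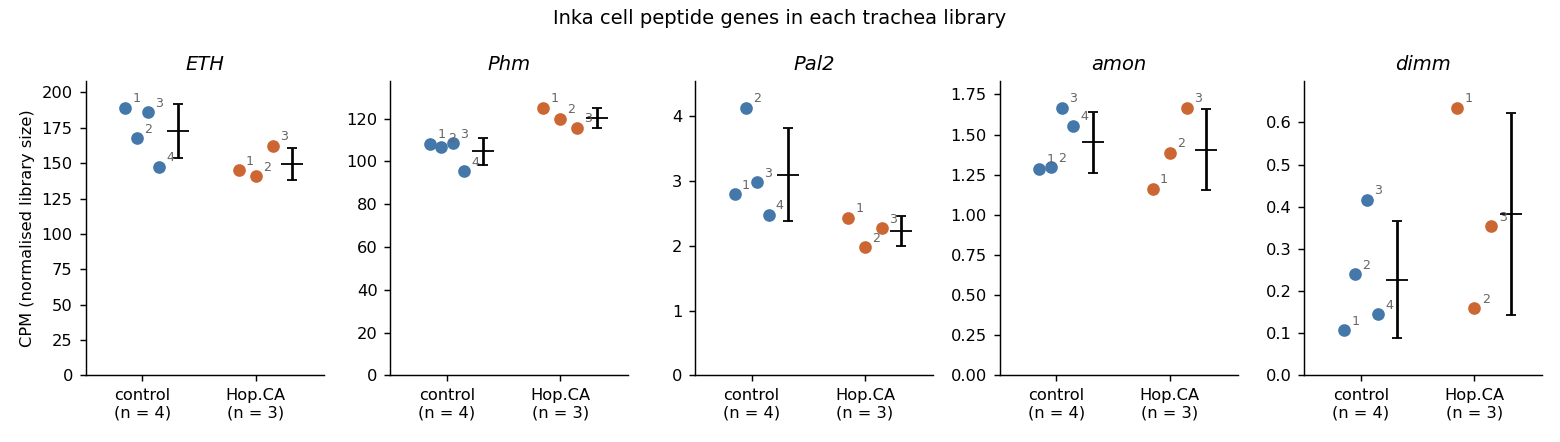
CPM (read counts scaled to the normalised library size) of the 5 genes in each library, from 0 on each vertical axis. Points are libraries with their replicate number and bars are the mean ± SD (n = 4 and 3); Hop.CA libraries lie above all controls for Phm (115.7 to 125 against 95.4 to 108.5 CPM) and below all controls for Pal2 (1.97 to 2.43 against 2.48 to 4.13 CPM).

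ETH, the hormone gene (2R, 24794670 to 24795482, minus strand, dm6, 2 exons), had 189, 167, 186 and 148 CPM in control replicates 1 to 4 and 145, 141 and 162 CPM in Hop.CA replicates 1 to 3. Hop.CA replicates 1 and 2 lay under every control and Hop.CA replicate 3 lay above control replicate 4, so the groups overlap. The fitted log2 fold change of Hop.CA over control was -0.21 ± 0.106 (SE, edgeR adjusted p = 0.170), with a 95% interval of 0.731 to 1.03 for the fold. In such bulk libraries fewer Inka cells and less RNA per cell cannot be told apart. All the CPM are also relative to the rest of the library. Of 8 tracheal marker genes 3 were called higher (trh, serp and verm) and btl lower, with a median log2 fold change of 0.11. The share called was 50%, beside the 31.5% of all tested genes. Their sum was 10957 to 11762 CPM in control and 15952.5 to 16739.7 CPM in Hop.CA, most of it from verm (5844 ± 282 and 8723 ± 306 CPM) and serp (3207.5 ± 193.5 and 5373 ± 155 CPM).

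Almost all ETH reads shared their place with another gene. The antisense RNA gene CR43257 (2R, 24793807 to 24795772, plus strand) spans ETH whole, all 755 exonic bases of it, and 683 of those also lie in exons of CR43257 in the Ensembl annotation of the same build. The 2640 to 3524 ETH reads per library include 69 to 112 that were assigned uniquely, and in every library these are exactly the reads that cross the exon-exon junction of ETH. Uniquely assigned reads were 2.99% of the ETH total, as against 100% for Phm, and 9.26% of all tested genes have under 10% of their reads unique. The library kit keeps the strand, but the sources used here do not say whether the counting used it. Without strand, reads from ETH and from CR43257 cannot be told apart, apart from those over the junction. The part of CR43257 counted for itself had 29 to 49 reads per library, all of them unique.

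The junction reads gave a smaller difference than the total, but from far fewer reads. They numbered 94, 96, 98 and 88 in control and 94, 69 and 112 in Hop.CA libraries, or 4.94 ± 0.672 and 4.77 ± 1.003 CPM. In CPM they lay between 4.28 and 5.83 in control and between 3.68 and 5.66 in Hop.CA libraries, and the groups overlap. Fitted on uniquely assigned reads, the log2 fold change of ETH was -0.05 ± 0.193 (SE, edgeR adjusted p = 0.859). That error is wide enough to include the -0.21 fitted on all reads, so these reads do not tell the values apart. CR43257, whose 3 Hop.CA libraries (2.17 to 2.59 CPM) lay above the 4 controls (1.56 to 2.11 CPM), did not pass the test either (log2 0.34 ± 0.212, edgeR adjusted p = 0.256). ETH had few intron reads, 5 to 9 per library.

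**Figure D2:**
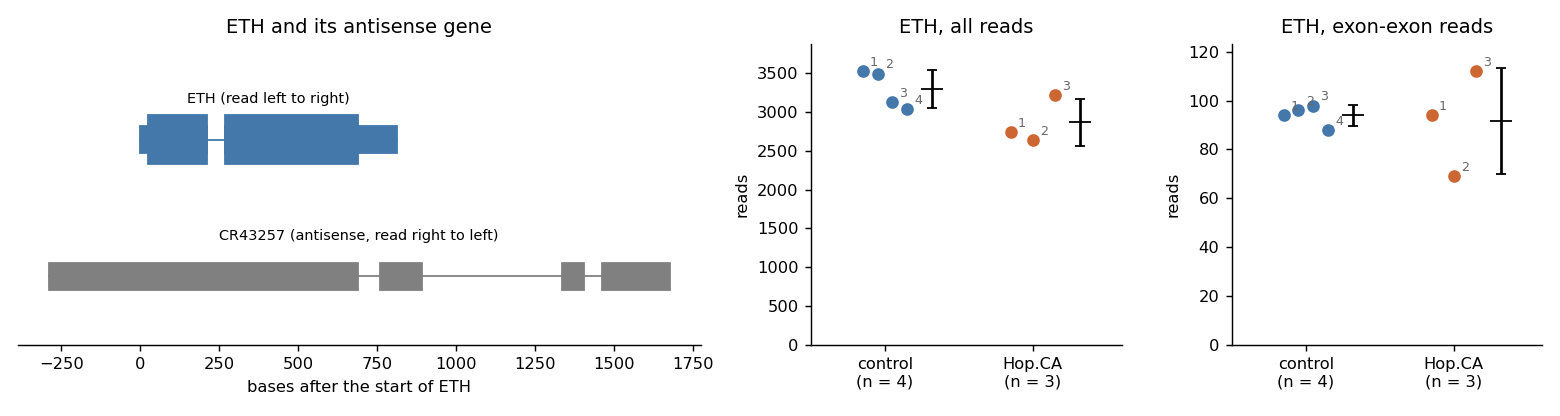
Left, the exons of ETH and of its antisense gene CR43257 in the reference annotation, in bases after the start of ETH (wide boxes are coding); ETH lies inside the extent of CR43257. Middle and right, all reads (2640 to 3524) and exon-exon reads (69 to 112) of ETH per library, with the mean ± SD (n = 4 and 3).

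Phm, which encodes the amidating hydroxylase (2R, 23985175 to 23988455, minus strand, 9 exons), had 108, 107, 108.5 and 95.4 CPM in control replicates 1 to 4 and 125, 120.0 and 115.7 CPM in Hop.CA replicates 1 to 3. Every Hop.CA library lay above every control. The difference was small and missed the threshold, at log2 0.20 ± 0.0734 (edgeR adjusted p = 0.0715), with a 95% interval of 1.021 to 1.29 for the fold. Across the 16 alternatives run, among them each library left out in turn, the adjusted p lay between 0.0534 and 0.254. The 1824 to 2365 reads were all unique. Of the exon reads 25.7% to 28.5% crossed a junction, as against 2.62% to 3.49% for ETH, which has 2 exons to the 9 of Phm. The median over tested genes with 2 or more exons was 6.94%.

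Pal2, one of the lyase genes (2R, 23688077 to 23690838, plus strand, 9 exons), had 2.79, 4.13, 2.97 and 2.48 CPM in control and 2.43, 1.97 and 2.27 CPM in Hop.CA libraries, from 37 to 86 reads. Every Hop.CA library lay below every control, but Hop.CA replicate 1 and control replicate 4 nearly met. The log2 fold change was -0.47 ± 0.239 (edgeR adjusted p = 0.166), with a 95% interval of 0.491 to 1.06 for the fold. Control replicate 2 was the highest, and it also stood apart in prothoracic gland markers, which summed to 132 CPM there and to 34.9 to 43.6 CPM in the other controls. Without it the Pal2 value was -0.30 (edgeR adjusted p = 0.333). A link between these markers and the Pal2 reads was not tested. Of the 2304 exonic bases of Pal2, 592 are shared with CG30183 on the opposite strand, and 75.6% to 97.3% of its reads were unique.

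amon, the convertase gene (3R, 26697697 to 26714159, minus strand, 12 exons), had 1.29, 1.30, 1.67 and 1.56 CPM in control and 1.16, 1.39 and 1.67 CPM in Hop.CA libraries. The groups lay over each other from end to end. The log2 fold change was -0.04 ± 0.248 (edgeR adjusted p = 0.910), and at 22 to 33 reads per library the 95% interval ran from 0.652 to 1.44 for the fold. Its spread of 13.1% in control and 17.9% in Hop.CA libraries (coefficient of variation) is no wider than the 19.1% that counting alone gives at this depth.

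dimm, the neuroendocrine factor gene (2L, 21331756 to 21342155, plus strand, 5 exons), was near the floor, with 2, 5, 7 and 3 reads in control replicates 1 to 4 and 12, 3 and 7 reads in Hop.CA replicates 1 to 3. These are 0.107 to 0.416 and 0.160 to 0.635 CPM, and the groups overlap. dimm did not pass the filter on low counts, so its CPM were compared with an exact two-sided permutation test over the 35 ways to assign the 7 libraries (p = 0.4, where 0.0571 is the smallest possible). A difference was not detectable at this depth.

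The sizes of the members' changes can be set beside those of all tested genes. 39.0% of the 9457 genes had a smaller absolute log2 fold change than ETH, 37.8% than Phm, 67.3% than Pal2 and 8.80% than amon. Within the Hop.CA group Phm varied by 3.91% and ETH by 7.67% (coefficient of variation), where counting alone gives 2.17% and 1.79%. By the root mean square difference of their centred log2 CPM over the 7 libraries, the genes most like ETH were Fdx1 (0.0426), Rtc1 (0.0447) and CG3527 (0.0513), against a median of 0.289 over all tested genes. Those most like Phm were CG12093 (0.0289), eEF1gamma (0.0290) and Snx3 (0.0363). For Pal2 they were CG5835, CG30440 and Hs6st (0.0765 to 0.0887), and for amon tyf, Prosap and CG8777 (0.0630 to 0.0744). These were picked as the nearest of all tested genes, so lying far under the median follows from the choice. A shared role was not tested.

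Ratios of ETH to the enzyme genes within a library do not depend on the scaling between libraries. Control replicates 1 to 4 had 1.75, 1.57, 1.71 and 1.55 ETH reads per Phm read, and Hop.CA replicates 1 to 3 had 1.16, 1.17 and 1.40. All 3 Hop.CA libraries lay under all 4 controls, from 1.64 ± 0.1002 to 1.25 ± 0.137 (mean ± SD, n = 4 and 3), a log2 difference of -0.41. An exact two-sided permutation test gave p = 0.0571, the smallest that 35 assignments allow, and 0.171 adjusted over the 3 ratios. On exon-exon reads, which the tables assign to ETH alone, the ratio was 0.169, 0.163, 0.198 and 0.169 in control and 0.141, 0.117 and 0.191 in Hop.CA libraries. There the groups overlap and the log2 difference was -0.25 (exact permutation p = 0.229), a choice of reads made after seeing the data. The ratio of ETH to Pal2 reads was 57.6 ± 11.8 in control and 67.5 ± 6.84 in Hop.CA (exact permutation p = 0.171, adjusted 0.257), and that of ETH to amon reads 120.7 ± 22.4 and 107.8 ± 14.6 (exact permutation p = 0.457, adjusted 0.457), with overlap in both.

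**Figure D3:**
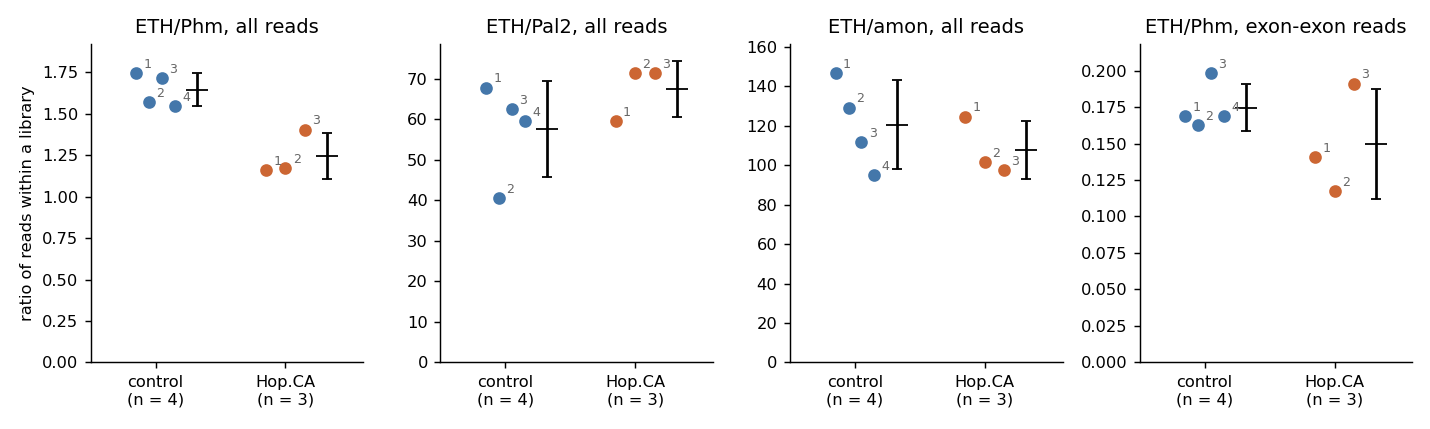
Ratio of ETH reads to the reads of Phm, Pal2 and amon within each library, from all reads, and of ETH to Phm from exon-exon reads (right). Points are libraries with their replicate number and bars the mean ± SD (n = 4 and 3); the Hop.CA libraries lie at 1.16 to 1.40 against 1.55 to 1.75 for ETH to Phm from all reads and overlap the controls in the other panels.

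Of 10 tested genes of the peptide processing list, which holds amon, Phm and Pal2, 3 rose and 1 fell. The share called was 40%, near the 31.5% over all tested genes, with a median log2 fold change of 0.21 against -0.01 over all tested genes. QC, a glutaminyl cyclase that closes the first residue of some peptides into a ring, stood at 72.2, 34.3, 68.3 and 64.1 CPM in control and 170, 180 and 160 CPM in Hop.CA libraries, and rose by log2 1.51 ± 0.235 (edgeR adjusted p = 0.00388). isoQC, a relative of QC, rose by log2 0.53 ± 0.128 (adjusted p = 0.0170), a call lost without Hop.CA replicate 1 (0.0671). svr, a carboxypeptidase that trims peptides after the convertase, rose by log2 0.49 ± 0.109 (adjusted p = 0.0131), at 129 ± 17.4 CPM in control and 180.5 ± 0.859 CPM in Hop.CA, and is named after its values were seen. 7B2, whose product is a chaperone of the PC2 convertase, had 9.50, 8.40, 10.5 and 7.78 CPM in control and 2.64, 4.05 and 4.19 CPM in Hop.CA libraries, and fell by 1.31 ± 0.201 on the log2 scale (adjusted p = 0.00310). amon, which encodes the client of this chaperone, stood at log2 -0.04, and the difference between 7B2 and amon was not tested. The convertases of the furin type, Fur1 (log2 0.33, adjusted p = 0.0692) and Fur2 (log2 0.23, adjusted p = 0.174), and Pal1 (log2 0.16, adjusted p = 0.178) did not pass.

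Of 22 tested genes of regulated vesicle release 6 rose and 2 fell, with a median log2 fold change of 0.20. The share called, 36.4%, is also near the 31.5% of all tested genes. Cadps, which primes dense-core vesicles for release, moved most, at 15.5, 12.7, 12.7 and 11.7 CPM in control and 36.6, 41.6 and 41.7 CPM in Hop.CA libraries (log2 1.605 ± 0.108, edgeR adjusted p = 1.57e-04). comt, the NSF ATPase that takes SNARE complexes apart, fell from 8.81 ± 0.707 to 3.84 ± 0.547 CPM (log2 -1.20 ± 0.148, adjusted p = 0.00142). Snap25, a SNARE of neurons, fell by 0.56 ± 0.134 on the log2 scale (adjusted p = 0.0174), while its broadly used relatives Snap24 and Snap29 were among the genes that rose, with Syb, Rop and Vps50. The call of Snap25 was lost on exon reads (0.249) and without Hop.CA replicate 1 (0.0666) or 3 (0.0623), and 49.5% of its reads were unique. The count of changed genes in the list was 5 without Hop.CA replicate 1 and 5 without Hop.CA replicate 3.

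Among ecdysis peptides and their receptors the genes with enough reads were few, 7 of 15, ETH among them. Of the 7, 1 rose and 3 fell, with a median log2 fold change of -1.04. The share called was 57.1%, beside the 31.5% of all tested genes, and the list was not tested against that share. The 3 that fell were CrzR, Pburs and Lk. They passed the filter on low counts through the controls, as not every Hop.CA library reached its minimum count of 10. Such a filter admits scarce genes that are high in 1 group, so the count and median do not show a fall of the list. With no filter CrzR, Pburs and Lk kept their calls (edgeR adjusted p = 0.0354, 0.0403 and 0.0242). ETHR, the receptor of the hormone, rose from 12.9, 12.7, 15.9 and 12.98 CPM in control to 19.8, 28.3 and 19.2 CPM in Hop.CA libraries (log2 0.72 ± 0.156, edgeR adjusted p = 0.0113). All 3 Hop.CA libraries lay above all controls. CrzR encodes the receptor of corazonin, a peptide that in the moth Manduca acts on Inka cells to start ETH release. It had 5.74, 11.8, 1.96 and 1.75 CPM in control and 0.741, 0.427 and 0.657 CPM in Hop.CA libraries and fell by 3.12 ± 0.790 on the log2 scale (adjusted p = 0.0224). Without control replicate 2 that value was -2.36, and without Hop.CA replicate 1, 2 or 3 the call was lost (0.0697, 0.0748 and 0.0820). With limma-voom the call of CrzR was also lost (log2 -2.70, limma-voom adjusted p = 0.0914). Pburs, a subunit of the tanning hormone bursicon, fell from 1.11 ± 0.368 to 0.369 ± 0.166 CPM (adjusted p = 0.0297), from 4 to 29 reads. Its call was lost without control replicate 1, 3 or 4 (0.0503, 0.0612 and 0.0505) or Hop.CA replicate 1 or 3 (0.0901 and 0.107). Lk, the leucokinin gene, fell by 1.37 ± 0.308 on the log2 scale (adjusted p = 0.0136, and 0.0590 without Hop.CA replicate 1), but it lies whole within CG34039 and has no unique read, so its fall is uncertain. CCAP-R, the receptor of a peptide released downstream of ETH, was at log2 -1.04 (adjusted p = 0.0566) and rk, the bursicon receptor gene, at log2 0.60 (adjusted p = 0.313). The other 8 genes of the list stayed under 1 CPM in every library, with Burs at 0 throughout. The count of changed genes in this list was 1 without Hop.CA replicate 1 and 2 without Hop.CA replicate 3.

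Of 8 tested genes on a list of known or possible regulators of ETH expression or release, 2 rose and 1 fell, with a median log2 fold change of 0.04. The share called was 37.5%, near the 31.5% of all tested genes. crc, the fly ATF4 that ETH expression depends on, rose from 968 ± 53.6 to 1648 ± 53.4 CPM (log2 0.77 ± 0.0773, edgeR adjusted p = 6.81e-04) in the same libraries in which ETH stood at log2 -0.21. 31.8% of its reads were unique, since CG46314 overlaps it on the same strand, and on uniquely assigned reads its value was log2 0.81. usp, the partner of the ecdysone receptor, was called at log2 0.24 ± 0.0761 (adjusted p = 0.0440) and Eip74EF, an early ecdysone response gene, at log2 -0.62 ± 0.197 (adjusted p = 0.0471). Both calls were lost in most alternatives, that of usp in 10 of 15 and that of Eip74EF in 9 of 16, among them without any single library other than control replicate 2, where the adjusted p reached 0.140 and 0.138, and usp lies whole within Actn and has no unique read. The count of changed genes in the list was 1 without any single library other than control replicate 2, and 1 with library size only. EcR, the receptor gene itself, was at log2 -0.29 (adjusted p = 0.281), and ftz-f1, which gives Inka cells the competence to release ETH, at log2 0.24 (adjusted p = 0.464).

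**Figure D4:**
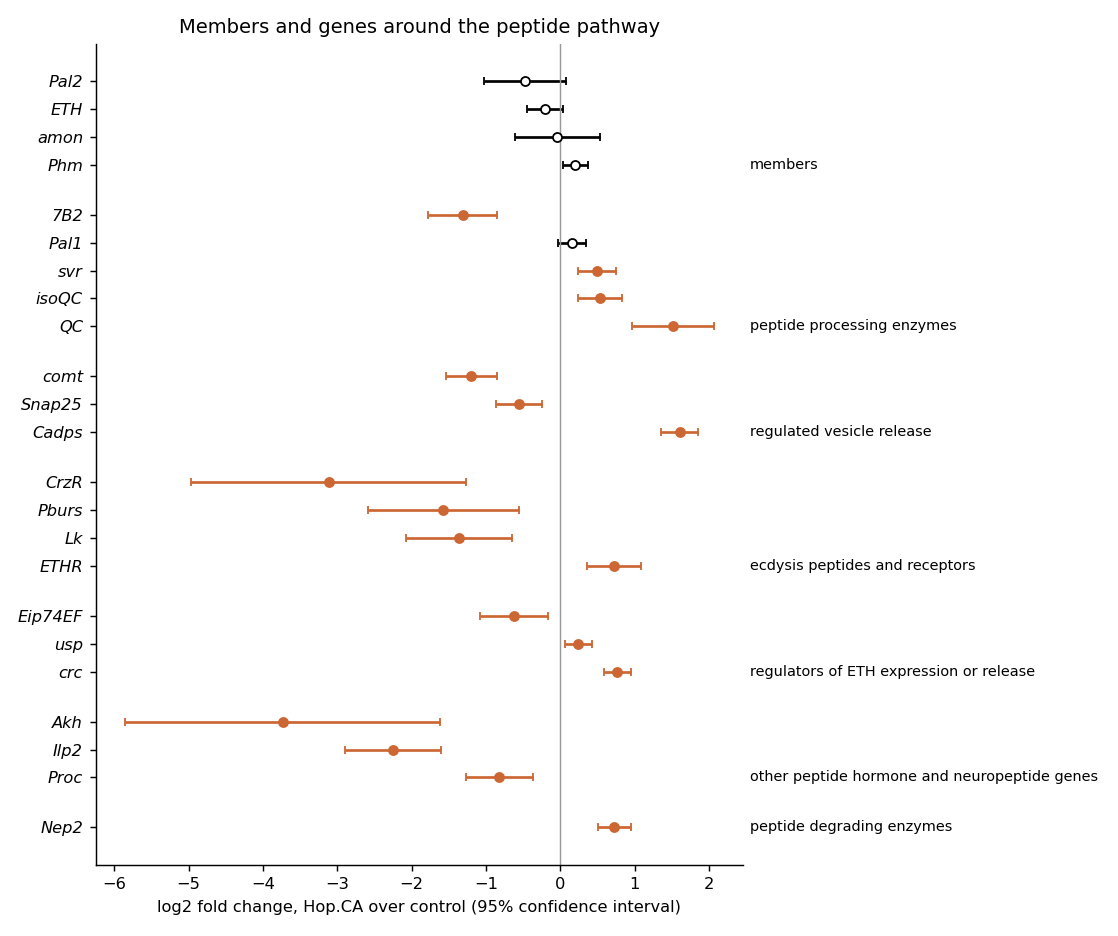
Log2 fold change of Hop.CA over control with its 95% confidence interval for the 4 tested members and for the genes named in each list around them; filled orange points passed the adjusted p threshold of 0.05 and open black points did not. The 4 members lie between -0.47 and 0.20, while QC (1.51), Cadps (1.605) and 7B2 (-1.31) lie farther out.

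Of 12 tested genes among 25 for other peptide hormones, 4 fell and 0 rose by edgeR (median log2 fold change -0.46), a share of 33.3% beside the 31.5% of all tested genes. CCHa1, named after its values were seen, stood at log2 0.92 (edgeR adjusted p = 0.0502), with no overlap of the groups. Akh, the adipokinetic hormone gene of the corpora cardiaca, had 0.483, 3.65, 0.892 and 0.826 CPM in control and 0.101 to 0.107 CPM in Hop.CA libraries (log2 -3.74 ± 0.914, edgeR adjusted p = 0.0186), from as few as 2 reads, and lost its call without Hop.CA replicate 1, 2 or 3 (0.0639, 0.0559 and 0.0680). Without control replicate 2, 3 or 4, or with a minimum of 1 CPM in 3 libraries, Akh had too few reads to be tested. In the main fit Akh passed the filter on low counts only through the controls, where it is high. With no filter its edgeR adjusted p was 0.0154. Ilp2, an insulin gene of brain neurosecretory cells, fell from 6.73 ± 1.97 to 1.41 ± 0.161 CPM (log2 -2.25 ± 0.278, adjusted p = 0.00142). Ilp2 lies within CG32052, 11.8% of its reads were unique, and on those its value was log2 -1.57. Proc, the proctolin gene, fell by 0.82 ± 0.194 on the log2 scale (adjusted p = 0.0161), a call lost without Hop.CA replicate 1 or 2 (0.0610 and 0.0518). ITP, the ion transport peptide gene, fell from 107 ± 10.997 to 77.1 ± 2.56 CPM (adjusted p = 0.00813). The count of changed genes in the list was 2 without Hop.CA replicate 1 and 2 without Hop.CA replicate 2. Of 4 tested peptide-degrading enzymes, Nep2, a neprilysin, rose by log2 0.73 ± 0.0982 (adjusted p = 0.00193), at 31.0 ± 2.53 CPM in control and 51.3 ± 5.19 CPM in Hop.CA. The other enzymes did not pass (median log2 fold change -0.13). The share called was 25%, beside the 31.5% of all tested genes. The count of changed enzymes was 2 without Hop.CA replicate 2.

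Markers of neurons and enteroendocrine cells, which can also give peptide gene reads, were low. Which cells the reads of the members came from was not tested. 0 of 10 tested neuron markers were called by edgeR, and the 11 of that list summed to 29.5 to 41.7 CPM in control and 28.3 to 34.9 CPM in Hop.CA libraries, with elav at 15.6 ± 2.29 and 12.9 ± 1.11 CPM and VGlut at 0 in 5 of the 7 libraries. Enteroendocrine markers summed to 3.74 to 6.07 and 3.69 to 5.44 CPM, with 0 of 4 tested genes called and NPF at 0 in 6 libraries. Corpora cardiaca and allata markers, which include Akh, summed to 0.590 to 4.37 CPM in control and 0.101 to 0.212 CPM in Hop.CA, and of prothoracic gland markers, which summed to 34.9 to 132 and 29.6 to 43.7 CPM, 1 of 6 tested was called, lower. Of 4 glial markers 2 fell, repo from 1.12 ± 0.343 to 0.347 ± 0.163 CPM and Gs2, whose level of 3399 ± 976 CPM in control is far from that of repo. The part of these cells in the changes of the peptide genes was not tested. Muscle markers also moved, with 4 of 10 called lower and sums of 6697 to 14793 CPM in control and 2419 to 7596 CPM in Hop.CA. Of 8 imaginal disc markers 4 were called lower (vg, nub, ap and en), with a median log2 fold change of -1.50. The 8 summed to 154.9 to 280.0 CPM in control and 168 to 186 CPM in Hop.CA, most of it from sd (145 ± 26.7 and 157 ± 3.11 CPM, log2 0.11). By edgeR 0 of 7 fat body markers (1800.2 to 6500.2 and 2289 to 4450.2 CPM) and 0 of 6 haemocyte markers (427 to 513 and 377 to 644 CPM) were called. Beside all these marker counts, 31.5% of all tested genes were called in either direction and 15.1% were called lower. The markers repo, phm and Akh, all called lower, passed the filter on low counts only through the controls. ETH and Phm, at 141 to 189 and 95.4 to 125 CPM, stood above the summed neuron markers in every library, while amon, Pal2 and dimm lay below them. ETH and Phm lay below the summed tracheal, muscle, fat body, glial and haemocyte markers in every library. Such sums do not measure which cells gave the reads of a member.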

How the data were processed

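Polyadenylated RNA of 7 tracheal samples (4 control, 3 Hop.CA) was sequenced from stranded libraries, per the labels' protocols. The submitters' processing notes name cutadapt 1.8.1 and the genome build dm6. Aligner, counter and the use of strand in counting were not given in the sources used here. The authors deposited read counts per gene (total, unique to the gene, exon, intron and exon-exon reads) and RPKM values, per the file headers. RPKM was used only for levels between genes. A row without a gene name was left out.

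Total counts were tested with edgeR 4.0.16 (R 4.3.3): TMM scaling, filterByExpr with a minimum count of 10 and a total of 15, a robust quasi-likelihood fit, and Benjamini-Hochberg adjustment over all tested genes at 0.05. CPM are on the TMM-scaled library size. Read ratios and dimm were tested by exact two-sided permutation (scipy 1.17.1). Alternatives were RLE and unscaled libraries, other filters, DESeq2 1.42.0, limma-voom 3.58.1, unique or exon reads, a replicate block and each library left out. Exon-exon reads were added after seeing the data. The edgeR code was tested on simulated data. No pair of libraries agreed within counting noise (lowest chi-square per degree of freedom 20.6).

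The members and gene lists were chosen with earlier results of these data known. The genes named around the members are at most 3 per list, by size of change among those past the threshold, plus hop, ETHR and, for each tested member, the 3 genes most like it. Genes named beyond that were chosen after their values were seen. Positions were the same in the deposited tables and the Ensembl annotation.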

Additional observations from a re-analysis of the deposited data

Results flagged for a closer look

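In 6 of the 38 sets of 4 control values checked, 1 library lay farther from the others than Dixon's 95% limit for the gap over the whole range, which chance gives in about 1 in 20. Phm was 95.4 CPM in control replicate 4 and 106.6 CPM or more in the other controls. ETHR was 15.9 CPM in control replicate 3 and at most 12.98 CPM in the others. Control replicate 2 gave the other flags, with Eip74EF at 198 CPM (next 125 CPM), Akh at 3.65 CPM (next 0.892 CPM), summed prothoracic gland markers at 132 CPM (next 43.6 CPM) and summed corpora cardiaca and allata markers, of which Akh is one, at 4.37 CPM (next 1.02 CPM). The part of these cells in the values of control replicate 2 was not tested.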

How the results depend on the processing

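No member was called by edgeR or under any of the 16 alternatives, with adjusted p of 0.0663 to 0.859 for ETH, 0.0534 to 0.254 for Phm, 0.117 to 0.348 for Pal2 and 0.707 to 0.982 for amon. amon changed sign without control replicate 3 (0.02) and without Hop.CA replicate 1 (0.076), in a range of -0.18 to 0.076 with a library left out. The log2 ratio of ETH to Phm lay between -0.49 and -0.36 with a library left out, but was -0.26 on uniquely assigned reads (exact permutation p = 0.286) and -0.25 on exon-exon reads (p = 0.229). Leaving out 1 library gave 1676 to 3407 changed genes (1676 without Hop.CA replicate 3), 3 to 5 for processing, 5 to 9 for vesicle release, 1 to 5 for ecdysis genes, 1 to 3 for regulators, 2 to 4 for other peptides and 1 to 2 for degrading enzymes. Regulators gave 1 with library size only and 1 with no filter, and degrading enzymes gave 2 with DESeq2. Replicate numbers did not pair the libraries (correlations of same-numbered deviations -0.22, -0.43 and -0.07). With a replicate block 938 genes were changed, and the lists gave 2 for processing, 2 for vesicle release, 0 for ecdysis genes, 1 for regulators and 2 for other peptides, with ETHR at an edgeR adjusted p of 0.0866. The cause of these differences was not tested. Counting error limits amon and dimm most.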
